A study of Mus musculus with 10 samples.

Results

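Calorie restriction was compared with free feeding in cells of the mouse intestine that were sorted by the Hopx reporter, which is used to mark reserve stem cells. The members are the 4 Hopx libraries of a series of 10, chosen by their labels: 2 from C57Bl/6 mice fed ad libitum (AL) and 2 from C57Bl/6 mice labelled Calorie Restricted (CR). Each library came from 1 animal. All 4 animals carried Hopx-CreER::LSL-tdTomato, in which the Hopx locus drives an inducible Cre recombinase that switches on the red protein tdTomato by removing a stop cassette. The switch is heritable, so descendants of a marked cell keep the colour. The AL and CR animals of replicate 1 were isolated together as isolation 4 of the study's 5 isolations, and those of replicate 2 as isolation 5. The other 6 libraries came from Lgr5-sorted active stem cells, 3 AL and 3 CR, from isolations 1 to 3. The sources used here give no age, no degree or duration of restriction and no timing of Cre induction. All 30295 gene rows of the deposited table were taken, of which 15839 had enough counts to be tested.

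Reserve stem cells sit near the crypt base, divide rarely, resist injury that kills the fast-dividing Lgr5 cells, and can rebuild the crypt afterwards. The kinase complex mTORC1, built on mTOR and its scaffold raptor, reads amino acids and insulin, promotes protein synthesis and growth, and is held back by the TSC complex. Its activity is set mostly by phosphorylation and by recruitment to the lysosome, which mRNA levels do not measure. Calorie restriction is known to lower insulin signalling and to shift cells toward the burning of fat. The title of the series asks how restriction acts on mTORC1 in these cells.

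The Hopx libraries held 72.1 M (AL) and 87.2 M (CR) estimated counts in isolation 4 and 37.6 M and 45.6 M in isolation 5. Levels are given as CPM, counts scaled to a common library size, and each pair of values is in the order isolation 4, isolation 5. Hopx mRNA itself stood at 111 and 105 CPM under AL and at 116 and 81.9 CPM under CR. The 6 Lgr5 libraries ranged from 116 to 154 CPM for Hopx, and 3 of the 4 Hopx libraries lie below that range. Lrig1, a further reserve marker, ran from 91.9 to 179 CPM in the Hopx and from 122 to 308 CPM in the Lgr5 libraries. Bmi1, a chromatin repressor used as another reserve cell marker, was at 30.2 and 26.9 CPM under AL and at 36.7 and 21.2 CPM under CR. The reserve markers therefore do not set these libraries above the Lgr5 libraries, and they are called Hopx cells by their sort. Hopx and Bmi1 did not separate the diets (log2 difference -0.13, SE 0.19, for Hopx and 0.02, SE 0.38, for Bmi1). The tdTomato transcript was not analysed here. Lyz1, the lysozyme of Paneth cells, was the most abundant gene in all 4 libraries, at 9.39% and 3.44% of counts under AL and 3.89% and 2.39% under CR, and Paneth cell markers together took 7.94% to 20.2% of counts. The epithelial gene Epcam ran from 1493 to 1856 CPM, while Ptprc, the pan-leukocyte gene Cd45, ran from 4.30 to 7.75 CPM.

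The pairs differ in ways other than diet. In isolation 4 the Y-linked gene Eif2s3y was at 41.2 CPM in the AL library and 0.254 CPM in the CR library, while in isolation 5 it was at 49.8 and 44.4 CPM. The 4 tested Y-linked genes summed to 82.6 and 133 CPM under AL and to 2.76 and 112 CPM under CR, so CR replicate 1 stands apart from the other 3 libraries. The labels give no sex, and in isolation 4 a difference of sex between the animals could not be told apart from diet. The part of CR replicate 1 in the differences of isolation 4 was not tested. Across the 15839 genes, the CR minus AL difference of isolation 4 correlated only weakly with that of isolation 5 (Pearson's r 0.17, Spearman's rho 0.19, across genes, which are not independent). The signs matched for 57.2% of genes. Of 1345 genes at least 2-fold higher in isolation 4 and 1298 in isolation 5, 317 were shared (2% of all genes). These were 23.6% of the first set and 24.4% of the second. In the lower direction 483 were shared (3.05% of all genes), 31.5% of 1534 genes in isolation 4 and 25.7% of 1880 in isolation 5. Another 227 were higher by that fold in isolation 4 and lower in isolation 5, and 230 the reverse. For the 10760 genes of at least 5 CPM in the higher group, Pearson's r was 0.29 and Spearman's rho 0.26.

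Transcript length moved with diet as well. Genes were divided into 5 equal bins by their longest annotated transcript, and the median log2 difference ran from -0.25 in the shortest bin (up to 1756 bases) to 0.16 in the longest (5098 bases or more). The gradient was steep in isolation 4, from -0.35 to 0.33, and small in isolation 5, from -0.12 to 0.01. Isolation 5 instead had a gradient of GC content, with a median of -0.17 in the bin lowest in GC and 0.16 in the highest. In the longest bin 29.4% of genes had both CR libraries above both AL libraries, and in the shortest bin 9.51%. For many of the lists and for Rptor, Mtor and Tsc2, a value after a correction for length and GC content is therefore also given below. Most other single genes, long ones included, are given without that correction.

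**Figure D1:**
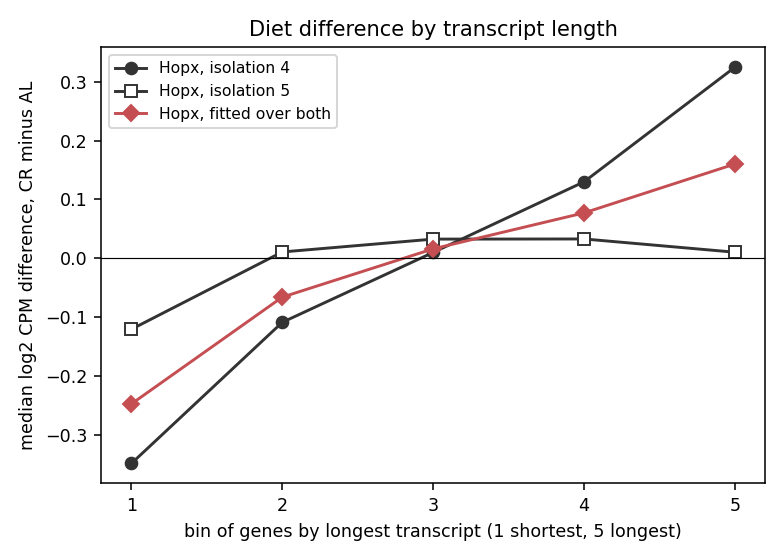
Median difference in log2 CPM (CR minus AL, vertical axis) of Hopx cells for genes in 5 bins of transcript length (horizontal axis), in isolation 4 (filled circles), isolation 5 (open squares) and fitted over both (red diamonds). The line of isolation 4 climbs from -0.35 to 0.33, and that of isolation 5 stays between -0.12 and 0.03.

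Against this spread, 2 of 15839 genes (0.0126%) passed an adjusted p of 0.05 in edgeR's quasi-likelihood test over all 10 libraries, both lower under CR. Gm10698, a predicted gene, held 405 and 266 counts in the AL libraries and none in either CR library. Taking 3 counts over the CR group as the limit that a count of 0 allows, it was at least 281-fold lower (edgeR adjusted p = 0.00102). Gm9765, also predicted, fell from 52.1 and 23.7 CPM to 0.242 and 0.0462 CPM, a log2 difference of -7.89 (SE 0.88, edgeR adjusted p = 0.0328). With the isolation as a block in the fit of all 10 libraries, no gene passed and both stood at adjusted p = 0.13 (range over alternatives 3.2e-10 to 0.13 for Gm10698 and 2.2e-25 to 0.218 for Gm9765). That blocked fit had 1575 genes at an unadjusted p under 0.05, and the unblocked fit 1349 (8.52%), 857 of them higher (5.41%) and 492 lower (3.11%). DESeq2 called 144 genes (0.924% of 15591), 89 higher (0.571%) and 55 lower (0.353%). Reads of predicted genes and pseudogenes can be divided among near-identical copies, so their single values are uncertain.

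A fit of the Hopx libraries alone with the isolation as a block called 25 genes (0.164% of 15215), 14 higher (0.092%) and 11 lower (0.0723%), with edgeR adjusted p from 0.00179 to 0.0496. This fit has 1 residual degree of freedom, and with the length and GC correction it called 3, 1 higher and 2 lower. All 25 genes had groups that do not overlap, as did 21.5% of all genes in the higher direction and 21.1% in the lower. The 14 genes that rose in the paired fit were Capn15, Muc3, Slc28a1, Apob, Abcc2, Cyp2c55, Cyp2b10, Acaa1b, Susd2, Slc43a2, Npc1l1, Aldh1a1, Cubn and Lct. None of them passed in edgeR over all 10 libraries, with or without the isolation as a block. Of these 14, Apob and Lct are on the enterocyte list, Abcc2 and Cyp2b10 on the xenobiotic list, Acaa1b on the fatty acid oxidation list and Cubn on the regional list, and the others are on none. Capn15, a calpain-family protease, had 2 and 0 counts under AL and 855 and 140 under CR, a ratio of 396 with a 95% counting interval from 109 to 3277. The 11 that fell were Gm10698, Gm9765, Rbm45, Gm4353, Rps19-ps6, Zfp280d, Mptx1, Gm10704, Atxn1l, Rpl3-ps1 and Rprd2. Rprd2, which binds the tail of RNA polymerase II, had 81 and 211 counts under AL and none under CR, at least 122-fold lower. The Capn15 interval and the Rprd2 limit cover counting error, not the spread between animals. Over the alternatives the log2 difference ran from 1.38 to 11.26 for Capn15 and from -23.95 to -0.41 for Rprd2.

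**Figure D2:**
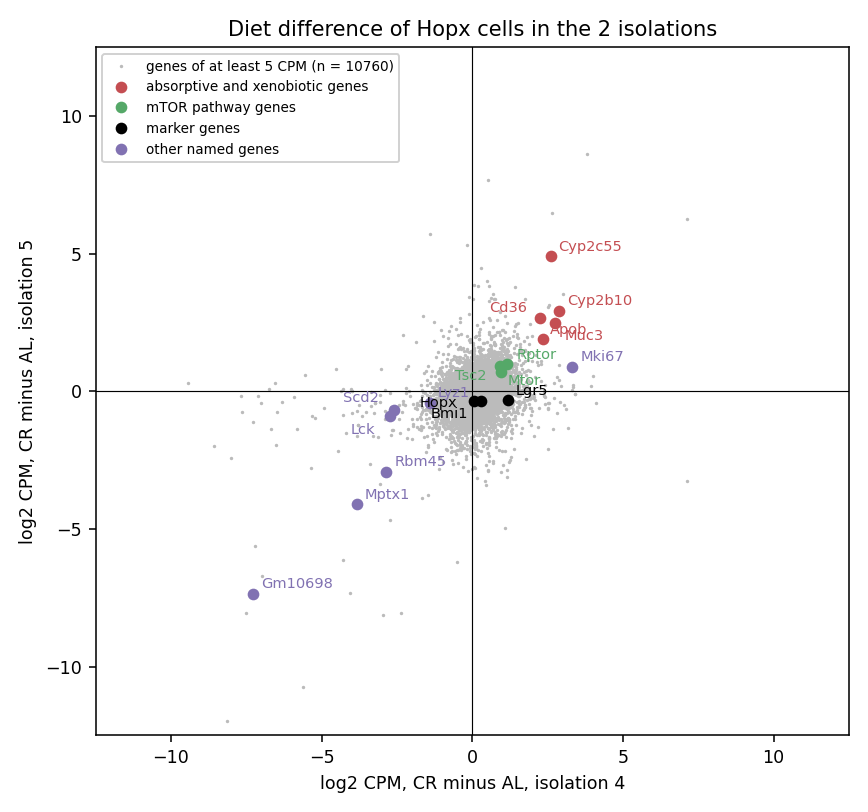
Difference in log2 CPM (CR minus AL) of each gene whose higher diet mean reached 5 CPM (grey, n = 10760), isolation 4 on the horizontal and isolation 5 on the vertical axis, with named genes in colour. Named absorptive, xenobiotic and mTOR pathway genes lie above 0 in both isolations, while Hopx, Bmi1 and Lgr5 lie below 0 in isolation 5.

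Of the mTOR complex genes, the kinase, the mTORC1 scaffold and the TSC subunit tuberin were higher under CR in both isolations. Rptor, which encodes raptor, stood at 24.7 and 24.9 CPM under AL and at 54.7 and 49.0 CPM under CR. Its log2 difference was 1.07 (SE 0.20, edgeR adjusted p = 0.406). Mtor stood at 34.1 and 29.5 CPM under AL and at 64.4 and 55.9 CPM under CR, a log2 difference of 0.92 (SE 0.24, edgeR adjusted p = 0.469). Tsc2, which encodes tuberin, stood at 49.96 and 55.02 CPM under AL and at 97.1 and 89.5 CPM under CR, a log2 difference of 0.83 (SE 0.19, edgeR adjusted p = 0.455). For all 3 genes the AL libraries lie close together and both CR libraries lie above them. None passed the threshold. DESeq2 gave adjusted p = 0.00096 for Rptor, 0.0205 for Tsc2 and 0.0624 for Mtor, and over all alternatives these p-values reached 0.89 when AL replicate 2 was left out. All 3 transcripts are in the longest bin (6594, 8564 and 6266 bases), where 8.33% of genes were higher at an unadjusted p under 0.05, and after the length and GC correction their log2 differences were 0.75, 0.61 and 0.53. With the length taken as the median over a gene's transcripts, the corrected values were 0.89, 0.88 and 0.79.

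The mTOR list as a whole stood near the level of all genes. Of 16 tested members, 11 were higher and 5 lower, with a median log2 difference of 0.09 against -0.02 over all genes. Groups did not overlap for 4 members (25% against 21.5% of all genes), the fourth being Mlst8, a subunit of both mTOR complexes, at 39.9 and 40.6 CPM under AL and 52.8 and 46.0 CPM under CR. Rictor, the scaffold of mTORC2, stood at 22.2 and 30.9 CPM under AL and 28.6 and 21.4 CPM under CR. Tsc1, the partner of tuberin, stood at 25.8 and 22.8 CPM under AL and 35.3 and 17.1 CPM under CR. Rheb, the GTPase that activates mTORC1 and that TSC switches off, stood at 97.5 and 83.0 CPM under AL and 85.7 and 74.6 CPM under CR. In these 3 genes the AL and CR values overlap.

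**Figure D3:**
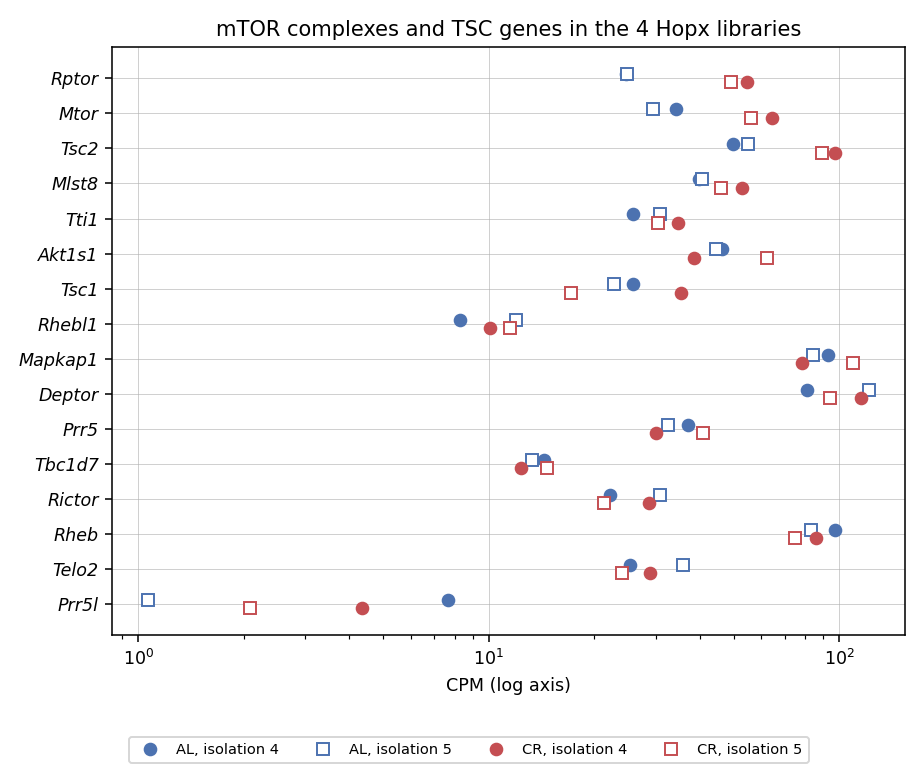
CPM (log axis) of the 16 tested genes of the mTOR complexes and TSC in the 4 Hopx libraries, blue for AL and red for CR, circles for isolation 4 and squares for isolation 5. Both CR libraries lie to the right of both AL libraries only for Rptor, Mtor, Tsc2 and Mlst8.

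Genes around the complexes moved little as groups. The 31 genes of amino acid sensing, which include the Rag GTPases, the Ragulator and the GATOR complexes that bring mTORC1 to the lysosome, had a median log2 difference of 0.03, with 16 higher and 15 lower. Groups did not overlap for 2 in the higher and 3 in the lower direction, fewer than the background in each. The 18 mTORC1 substrates and outputs had a median of 0.07, with 3 members clear of overlap in each direction (16.7% each way, below the 21.5% and 21.1% of all genes). Eif4ebp1, the translational brake that mTORC1 phosphorylates, stood at 26.9 and 17.5 CPM under AL and 13.7 and 19.2 CPM under CR. Rps6kb1, which encodes the S6 kinase, stood at 34.7 and 43.8 CPM under AL and 45.04 and 41.7 CPM under CR.

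Insulin signalling genes were mostly higher. Of 20 tested, 16 were higher under CR and 10 had groups that do not overlap, all in the higher direction (50% against 21.5%). The median log2 difference was 0.29, with 0.48 and 0.12 in isolations 4 and 5 and 0.15 without CR replicate 1. Of these 20 transcripts 12 are in the longest bin, in which 29.4% of genes were higher without overlap. The median after the length and GC correction was 0.14. Inppl1, the lipid phosphatase SHIP2 that lowers the signal downstream of the insulin receptor, stood at 36.7 and 42.0 CPM under AL and 56.0 and 59.1 CPM under CR. Irs2, an adaptor of the insulin receptor, stood at 35.8 and 46.2 CPM under AL and 72.2 and 52.2 CPM under CR. Pik3r2, a regulatory subunit of PI3 kinase, stood at 36.2 and 40.3 CPM under AL and 54.0 and 58.5 CPM under CR. No member passed the threshold in edgeR, and DESeq2 called none. The AMPK and LKB1 list, the sensors of low energy, had 10 of 14 members higher, and the sirtuin and NAD list 5 of 16, with medians of 0.15 and -0.14. The sirtuin median turned to 0.12 on the log2(TPM + 1) scale of limma, on which the median of all genes was 0.15 in place of -0.02. List medians given below on that scale are to be read against 0.15.

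Genes of fatty acid oxidation were mostly higher. Of 35 tested, 32 were higher under CR, 28 without overlap (80% against 21.5% of all genes) and 17 at an unadjusted p under 0.05 (48.6% against 5.41%). The median log2 difference was 0.58, with 0.36 in isolation 4 and 0.75 in isolation 5, and 0.60 after the length and GC correction. The summed level of the list was 6672 and 5346 CPM under AL and 8478 and 8625 CPM under CR. None of the 35 passed in edgeR over all 10 libraries, while DESeq2 called Cd36 (adjusted p = 0.0127) and Acot1 (adjusted p = 0.0337). These enzymes are also abundant in absorptive enterocytes, whose markers were higher in the same libraries, and the part of those cells was not tested.

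Among the single enzymes, Cpt1a, which controls the entry of long-chain fatty acids into mitochondria, stood at 242 and 182 CPM under AL and at 321 and 414 CPM under CR. The log2 difference was 0.80 (SE 0.24, edgeR adjusted p = 0.487). Cd36, a fatty acid transporter, stood at 5.36 and 5.19 CPM under AL and at 25.4 and 33.3 CPM under CR, a log2 difference of 2.48 (SE 0.65, edgeR adjusted p = 0.477). Both CR libraries lie well above the AL libraries for Cd36, and less so for Cpt1a. Acadl, the long-chain acyl-CoA dehydrogenase, stood at 212 and 126 CPM under AL and 339 and 313 CPM under CR. Ehhadh, a peroxisomal enzyme of the same pathway, stood at 118 and 118 CPM under AL and 188 and 202 CPM under CR. Acot1, a thioesterase that releases fatty acids from CoA, stood at 45.8 and 24.5 CPM under AL and 84.6 and 108 CPM under CR. Each of these 3 had AL and CR values clear of each other. Acaa1b, a peroxisomal thiolase, rose in the paired fit from 31.6 and 22.0 CPM to 111 and 87.2 CPM.

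Ketone body genes were divided. Oxct1, which cells use to burn ketone bodies, was lower under CR, at 103 and 171 CPM under AL and 76.7 and 98.8 CPM under CR. Acat1, a mitochondrial thiolase that works in both directions, was also lower, at 269 and 340 CPM under AL and 186 and 259 CPM under CR. Both genes have groups that do not overlap, and neither passed the threshold. Over the 10 genes of the list 7 were higher, 5 without overlap (50% against 21.5% of all genes), and 3 lower, 2 without overlap (20% against 21.1%).

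Drug-metabolizing enzymes and exporters were mostly higher too. Of 26 tested genes of NRF2 and xenobiotic metabolism, 24 were higher, 16 without overlap (61.5% against 21.5%) and 11 at an unadjusted p under 0.05 (42.3% against 5.41%), and none was lower without overlap. The median log2 difference was 0.61, with 0.48 and 1.15 in isolations 4 and 5, 1.07 without AL replicate 1 and 0.40 without AL replicate 2. Cyp2b10, a cytochrome P450 known as a target of the xenobiotic receptor CAR, stood at 63.7 and 59.6 CPM under AL and at 469 and 453 CPM under CR. The replicates of each diet lie close together, and the log2 difference of Cyp2b10 was 2.90 (SE 0.88, edgeR adjusted p = 0.487, and 0.00372 in the paired Hopx fit, range over alternatives 0.00372 to 0.89). Cyp2c55, of a neighbouring family, rose in the paired fit from 15.8 and 5.00 CPM to 96.1 and 151 CPM. Cyp3a11, a broad-range drug oxidase, stood at 391 and 146 CPM under AL and 1043 and 2018 CPM under CR. Cyp2c29 stood at 1.56 and 0.104 CPM under AL and 22.6 and 58.4 CPM under CR. Abcc2, an export pump for conjugated drugs, rose in the paired fit from 43.3 and 19.5 CPM to 121 and 83.7 CPM. Reads of Cyp genes can be divided between close relatives, so their single values and the direction they share are uncertain.

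Known antioxidant targets of NRF2 on the list, picked after their values were seen, were mixed. Hmox1 and Gclm, which NRF2 switches on under oxidative stress, stood at 1.95 and 0.912 CPM and at 135 and 129 CPM under AL, against 1.24 and 1.29 CPM and 123 and 130 CPM under CR. Nqo1, another target, stood at 86.9 and 41.8 CPM under AL and 72.3 and 77.0 CPM under CR. The diets overlap for these 3. Txnrd1, a thioredoxin reductase, was higher without overlap, at 311 and 292 CPM under AL and 367 and 396 CPM under CR. Gstm1 and Gstm3, glutathione transferases, were also higher without overlap, at 412 and 128 CPM and at 461 and 162 CPM under AL, against 810 and 594 CPM and 817 and 726 CPM under CR.

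Markers of absorptive enterocytes, the cells that line the villus, were higher without exception in sign. All 35 tested had a log2 difference above 0 (48.6% of all genes did), 28 without overlap (80% against 21.5%) and 7 at an unadjusted p under 0.05 (20% against 5.41%). The summed level was 20520 and 15300 CPM under AL and 31280 and 35270 CPM under CR, and the median log2 difference 0.97 (0.61 and 1.28 by isolation, 0.91 after the length and GC correction, 0.59 without AL replicate 2). In bulk libraries, fewer or more cells of a type and less or more RNA per cell cannot be told apart. Members without a clear gap, picked after their values were seen, were among them. Krt20, a keratin of the villus, stood at 829 and 884 CPM under AL and 759 and 1159 CPM under CR, and Rbp2, a retinol carrier, at 1062 and 917 CPM against 1033 and 1049 CPM.

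Apob, the protein backbone of chylomicrons, rose in the paired fit from 132 and 206 CPM to 666 and 761 CPM, a log2 difference of 2.08 (SE 0.52) with all libraries. Lct, which encodes lactase, rose in the same fit from 111 and 125 CPM to 369 and 450 CPM. Npc1l1, the intestinal cholesterol importer, rose there from 140 and 121 CPM to 421 and 400 CPM. In each of these genes the weaker CR library held over 2 times the level of the stronger AL library. Slc28a1, a nucleoside transporter, rose in that fit from 35.5 and 25.1 CPM to 141 and 102 CPM. Slc43a2, an amino acid transporter, went from 94.3 and 80.7 CPM to 260 and 259 CPM. Muc3, a membrane mucin of the brush border, went from 3.23 and 7.06 CPM to 21.9 and 39.7 CPM. Aldh1a1, which makes retinoic acid, went from 107 and 45.7 CPM to 298 and 179 CPM. Cubn, the receptor that takes up vitamin B12 with intrinsic factor in the ileum, went from 2.77 and 2.81 CPM to 16.5 and 25.4 CPM. Mep1a, a brush border protease, stood at 16.4 and 20.9 CPM under AL and 54.5 and 45.4 CPM under CR and did not pass in edgeR. Among regional regulators, Cdx2, the intestinal identity factor, stood at 68.2 and 89.5 CPM under AL and 126 and 126 CPM under CR, and Gata4, a factor of the proximal intestine, at 240 and 208 CPM against 330 and 322 CPM.

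**Figure D4:**
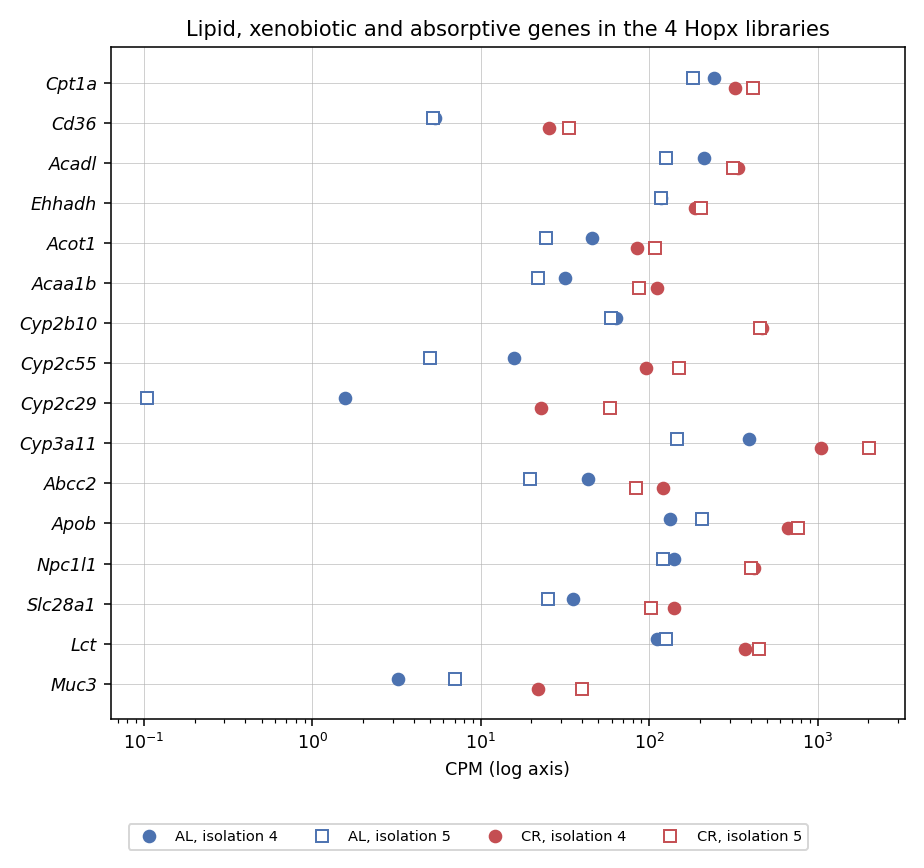
CPM (log axis) of 16 lipid, xenobiotic and absorptive genes in the 4 Hopx libraries, blue for AL and red for CR, circles for isolation 4 and squares for isolation 5. Red symbols lie to the right of blue ones for every gene shown, from a small gap for Cpt1a to the widest for Cyp2c29.

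Cholesterol synthesis went the other way, chiefly in isolation 4. Of 25 tested genes 20 were lower under CR (80% against 51.3% of all genes), 10 without overlap (40% against 21.1% of all genes), and none was higher without overlap. The median log2 difference was -0.32, made of -0.79 in isolation 4 and 0.03 in isolation 5. On the log2(TPM + 1) scale it was -0.04, and without AL replicate 1 or CR replicate 1 it was -0.09 or -0.15. Insig1, a sterol sensor and itself a target of SREBP, stood at 95.6 and 70.8 CPM under AL and at 42.9 and 58.3 CPM under CR, a log2 difference of -0.72 (SE 0.22, edgeR adjusted p = 0.485). Idi1, an enzyme of the pathway, stood at 132 and 114 CPM under AL and 49.0 and 89.7 CPM under CR. Both were lower without overlap, with the larger gap in isolation 4.

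Fatty acid synthesis genes were divided, and the desaturases that introduce the first double bond moved in opposite directions. Scd1 stood at 0.613 and 1.17 CPM under AL and at 5.20 and 14.0 CPM under CR, a log2 difference of 3.43 (SE 1.10, edgeR adjusted p = 0.503). Scd2 stood at 98.8 and 71.0 CPM under AL and at 16.2 and 44.6 CPM under CR, a log2 difference of -1.48 (SE 0.55, edgeR adjusted p = 0.526). Acacb, the acetyl-CoA carboxylase whose product blocks Cpt1a, stood at 15.0 and 13.1 CPM under AL and 23.4 and 41.2 CPM under CR. All 3 have groups that do not overlap, and none passed in edgeR, while DESeq2 called Scd1 (adjusted p = 0.0371). Over the list, 9 of 16 genes were higher, 8 without overlap (50% against 21.5% of all genes). The other 7 were lower, 3 without overlap (18.8% against 21.1%). The median log2 difference of the list was 0.29, and 0.14 after the length and GC correction.

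Energy and protein synthesis genes differed by list. Glycolysis genes were higher for 17 of 20, with a median log2 difference of 0.31 (0.01 and 0.49 by isolation, 0.18 without CR replicate 2), and Gapdh stood at 592 and 558 CPM under AL and 887 and 855 CPM under CR. Nuclear genes of the respiratory chain had 37 of 56 lower and a median of -0.11, which turned to 0.16 on the log2(TPM + 1) scale and 0.10 after the length and GC correction, or without CR replicate 1. The genes of the mitochondrial genome were lower for 10 of 12, 7 without overlap (58.3% against 21.1% of all genes). Of these 12 transcripts 11 are in the shortest bin, in which 33.3% of genes were lower without overlap. The median of the list was -0.73 (-0.50 and -0.93 by isolation), -0.28 after the correction and -0.33 without AL replicate 2. mt-Co3, a subunit of cytochrome c oxidase, stood at 9887 and 12640 CPM under AL and at 5235 and 6594 CPM under CR. The members that were higher, mt-Nd5 and mt-Nd6, had overlapping groups.

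Cytosolic ribosomal protein genes were lower for 73 of 77, 26 without overlap (33.8% against 21.1%), with a median log2 difference of -0.33 (-0.50 and -0.23 by isolation, -0.10 without CR replicate 1 and -0.62 without CR replicate 2). Of the 77, 58 are in the shortest bin of transcripts, in which 33.3% of genes were lower without overlap and the median was -0.25. The correction for length and GC content brought the list's median to -0.14 (-0.28 with the median over a gene's transcripts as length), and the log2(TPM + 1) scale to -0.06. Rpl13a stood at 61.3 and 77.4 CPM under AL and 31.5 and 46.1 CPM under CR. The mRNAs of ribosomal proteins are the classic targets whose translation mTORC1 controls, a step that mRNA levels do not show. Translation factors had 14 higher and 18 lower of 32, and their median of -0.11 turned to 0.18 on the log2(TPM + 1) scale and to 0.04 without CR replicate 1. Eif4g1, the scaffold of the cap-binding complex, stood at 269 and 227 CPM under AL and 426 and 385 CPM under CR. Eif4a2, a helicase that joins it, stood at 93.8 and 132 CPM under AL and 64.5 and 46.7 CPM under CR.

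Stem cell markers had median diet differences of opposite sign in isolations 4 and 5. Of 20 active stem cell markers 15 were higher, with a median log2 difference of 0.65 in isolation 4 and -0.25 in isolation 5, and of -0.15 in the fit without CR replicate 1. Lgr5, the R-spondin receptor of the dividing crypt base cells, stood at 70.0 and 87.2 CPM under AL and at 158 and 69.3 CPM under CR. Ascl2, a transcription factor that maintains those cells, stood at 29.8 and 45.4 CPM under AL and 88.3 and 40.1 CPM under CR. CR replicate 1 was the highest of the 4 libraries in both genes. Olfm4, a secreted protein of the same cells, stood at 1910 and 2546 CPM under AL and 2270 and 1878 CPM under CR. The 10 reserve markers had medians of 0.40 and -0.22 by isolation and -0.15 without CR replicate 1. Lrig1, a brake on growth factor receptors, was the only one without overlap, 10% of the list in the higher direction against 21.5% of all genes. It stood at 91.9 and 98.2 CPM under AL and 179 and 110 CPM under CR.

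Genes of G2 and mitosis were higher for 38 of 40, 25 without overlap (62.5% against 21.5% of all genes) and 8 at an unadjusted p under 0.05 (20% against 5.41%). The median log2 difference was 0.45, with 0.83 in isolation 4 and 0.16 in isolation 5, the correction for length and GC content gave 0.48, and leaving out AL replicate 1 gave 0.25. Gtse1, expressed in G2, stood at 14.6 and 16.8 CPM under AL and at 46.8 and 34.3 CPM under CR, a log2 difference of 1.37 (SE 0.31, edgeR adjusted p = 0.455). Incenp, of the chromosomal passenger complex, stood at 41.0 and 51.9 CPM under AL and 106 and 76.1 CPM under CR. Nek2, a centrosome kinase, stood at 30.2 and 31.2 CPM under AL and 57.1 and 50.4 CPM under CR. CR libraries exceed AL libraries in each of the 3. Mki67, the proliferation marker, stood at 5.92 and 51.2 CPM under AL and at 59.6 and 94.7 CPM under CR. AL replicate 1 was far below the other libraries in Mki67, and also in Cenpf and Cenpe, other very long mitotic transcripts singled out after their values were seen, at 0.871 and 2.00 CPM where the others held 14.2 CPM or more. Without that library the log2 difference of Mki67 was 0.60, and with all 4 it was 1.44.

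S phase genes did not share that direction. Of 35 tested, 13 were higher and 22 lower, with a median log2 difference of -0.16, which turned to 0.09 on the log2(TPM + 1) scale and to 0.07 without CR replicate 1. Brakes on the cell cycle were mixed. Cdkn2c, the inhibitor p18, stood at 15.2 and 13.2 CPM under AL and 21.6 and 23.6 CPM under CR. Cdkn1c, the inhibitor p57 known from quiescent stem cells, stood at 35.9 and 30.5 CPM under AL and 22.4 and 14.8 CPM under CR. Both have groups that do not overlap, in opposite directions, and neither passed the threshold.

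Notch, matrix and junction genes leaned higher. Notch genes were higher for 19 of 23 with a median log2 difference of 0.34, which was 0.14 after the length and GC correction and 0.08 without CR replicate 1. Dtx4, an E3 ligase of the pathway, stood at 72.2 and 78.2 CPM under AL and 140 and 128 CPM under CR, and Rbpj, its DNA-binding factor, at 20.1 and 22.8 CPM against 36.0 and 38.6 CPM. Laminin and hemidesmosome genes, which anchor the epithelium to its basement membrane, were higher for 15 of 16, 9 without overlap (56.2% against 21.5%), with a median of 0.68. Of these 16 transcripts 11 are in the longest bin, in which 29.4% of genes were higher without overlap, and the corrected median was 0.40. Lamb3, a chain of laminin-332, stood at 35.6 and 22.3 CPM under AL and at 78.8 and 74.6 CPM under CR, a log2 difference of 1.41 (SE 0.27, edgeR adjusted p = 0.406). Itgb4, the integrin that binds it, stood at 84.9 and 69.2 CPM under AL and 129 and 128 CPM under CR. Tight and adherens junction genes were higher for 19 of 21, 10 without overlap (47.6% against 21.5%), with a median of 0.40.

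The circadian clock is an oscillator in which the proteins CLOCK and BMAL1 bind E-boxes in genes such as Per1, Nr1d1 and Bhlhe41, whose products feed back on it. The sources used here give no hour of collection. Of 21 clock genes 16 were higher, 5 without overlap (23.8%, close to the 21.5% of all genes), with a median log2 difference of 0.53 (0.75 and 0.18 by isolation). Without CR replicate 1 the median was -0.02, and without AL replicate 1 it was 0.98. Per1, a repressor of the oscillator, stood at 6.08 and 4.27 CPM under AL and at 18.6 and 8.25 CPM under CR, a log2 difference of 1.38 (SE 0.60, edgeR adjusted p = 0.577). Bhlhe41, a repressor that competes for E-boxes, stood at 31.2 and 31.1 CPM under AL and at 11.8 and 18.7 CPM under CR, a log2 difference of -1.03 (SE 0.32, edgeR adjusted p = 0.490). Nr1d1, the nuclear receptor REV-ERB alpha, stood at 53.3 and 29.0 CPM under AL and 123 and 65.4 CPM under CR. The 3 genes have groups that do not overlap, Bhlhe41 in the opposite direction to the others.

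Promoters of Per1 and Bhlhe41 are shown because these clock genes stood apart in opposite directions while both promoters hold the same motif. The sequences are RefSeq promoters of build GRCm38.p6, chr11:69098699-69098998 on the plus strand and chr6:145865371-145865670 on the minus strand, from 250 bases before to 50 bases after the start, 5′ to 3′ on the gene's strand. Capitals mark the E-box CACGTG, which reads the same on both strands, at -166 in Per1 and -153 in Bhlhe41.
Per1: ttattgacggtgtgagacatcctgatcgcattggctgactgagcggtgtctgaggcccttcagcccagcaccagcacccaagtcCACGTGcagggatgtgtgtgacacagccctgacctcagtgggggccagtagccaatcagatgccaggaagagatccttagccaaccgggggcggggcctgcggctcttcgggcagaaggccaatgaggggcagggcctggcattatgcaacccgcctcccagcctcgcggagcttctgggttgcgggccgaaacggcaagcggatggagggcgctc
Bhlhe41: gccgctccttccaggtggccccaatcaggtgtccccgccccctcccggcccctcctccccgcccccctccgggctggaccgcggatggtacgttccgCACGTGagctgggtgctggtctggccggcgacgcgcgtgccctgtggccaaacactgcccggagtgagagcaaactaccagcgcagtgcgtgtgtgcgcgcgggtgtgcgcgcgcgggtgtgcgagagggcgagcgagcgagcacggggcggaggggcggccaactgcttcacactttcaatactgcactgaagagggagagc
Of the 21 clock genes 17 had a RefSeq promoter in the table, 25 promoters in all, and 6 of these (24%) held CACGTG, against 7.15% of 32851 promoters of the same length. A match of letters is a description of these windows and does not show binding.

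Genes of several other cell types were lower under CR. Paneth cell markers were lower for 19 of 22, 11 without overlap (50% against 21.1% of all genes and 33.3% of the shortest bin), and the list took 20.2% and 10.3% of counts under AL and 11.3% and 7.94% under CR. Its transcripts are short, with 20 of 22 in the shortest bin, and the median log2 difference of -0.66 became -0.23 after the length and GC correction, -0.43 with the median over transcripts as length, and -0.09 without AL replicate 1. Mptx1, a pentraxin of Paneth cells, fell in the paired fit from 26.3 and 25.8 CPM to 1.81 and 1.46 CPM (log2 difference -3.99, SE 0.97). Nupr1, a stress-induced nuclear protein, stood at 136 and 61.5 CPM under AL and 26.7 and 36.5 CPM under CR. Reg3b, an antimicrobial lectin also made by enterocytes, stood higher, at 942 and 1922 CPM under AL and 3194 and 5489 CPM under CR.

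Enteroendocrine markers were lower for 30 of 31, 18 without overlap (58.1% against 21.1%), with a median log2 difference of -0.71 (-0.51 and -1.22 by isolation, -0.65 after the correction, -0.35 without CR replicate 2). Pax4, a factor that commits cells to the lineage, stood at 7.02 and 9.07 CPM under AL and at 3.84 and 2.08 CPM under CR. Pcsk1n, an inhibitor of the prohormone convertase, stood at 7.47 and 11.8 CPM under AL and 2.66 and 2.87 CPM under CR. Scg5, a chaperone of secretory granules, stood at 71.1 and 22.9 CPM under AL and 21.9 and 9.45 CPM under CR. The CR values lie below the AL values in all 3. The summed level of the list was 9823 and 9752 CPM under AL and 9258 and 3793 CPM under CR, so most of the drop in abundance was in CR replicate 2. Tuft cell markers were lower without overlap for 2 of 23 (8.7% against 21.1% of all genes), and the median of -0.19 turned to 0.12 on the log2(TPM + 1) scale and to 0.68 without AL replicate 1.

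T and NK lymphocyte markers were lower for 22 of 23, 15 without overlap (65.2% against 21.1%), and summed to 297 and 134 CPM under AL and 30.7 and 100 CPM under CR. The median log2 difference was -3.16 in isolation 4 and -0.69 in isolation 5, and -1.09 without CR replicate 1. Lck, the kinase of the T cell receptor, stood at 11.5 and 9.17 CPM under AL and at 1.68 and 4.85 CPM under CR. Itgae, the integrin that keeps lymphocytes in the epithelium, stood at 14.8 and 8.03 CPM under AL and 2.43 and 4.64 CPM under CR. CR replicate 1 was the lowest library in both. Interferon-response genes were lower for 27 of 33, 17 without overlap (51.5% against 21.1%), with a median of -0.50, of -0.30 without AL replicate 2, and of -0.07 on the log2(TPM + 1) scale. The part of lymphocytes in the interferon genes was not tested. Stromal, endothelial, glial and muscle markers had 9 of 20 higher and summed to 148 and 104 CPM under AL and 181 and 80.2 CPM under CR.

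**Figure D5:**
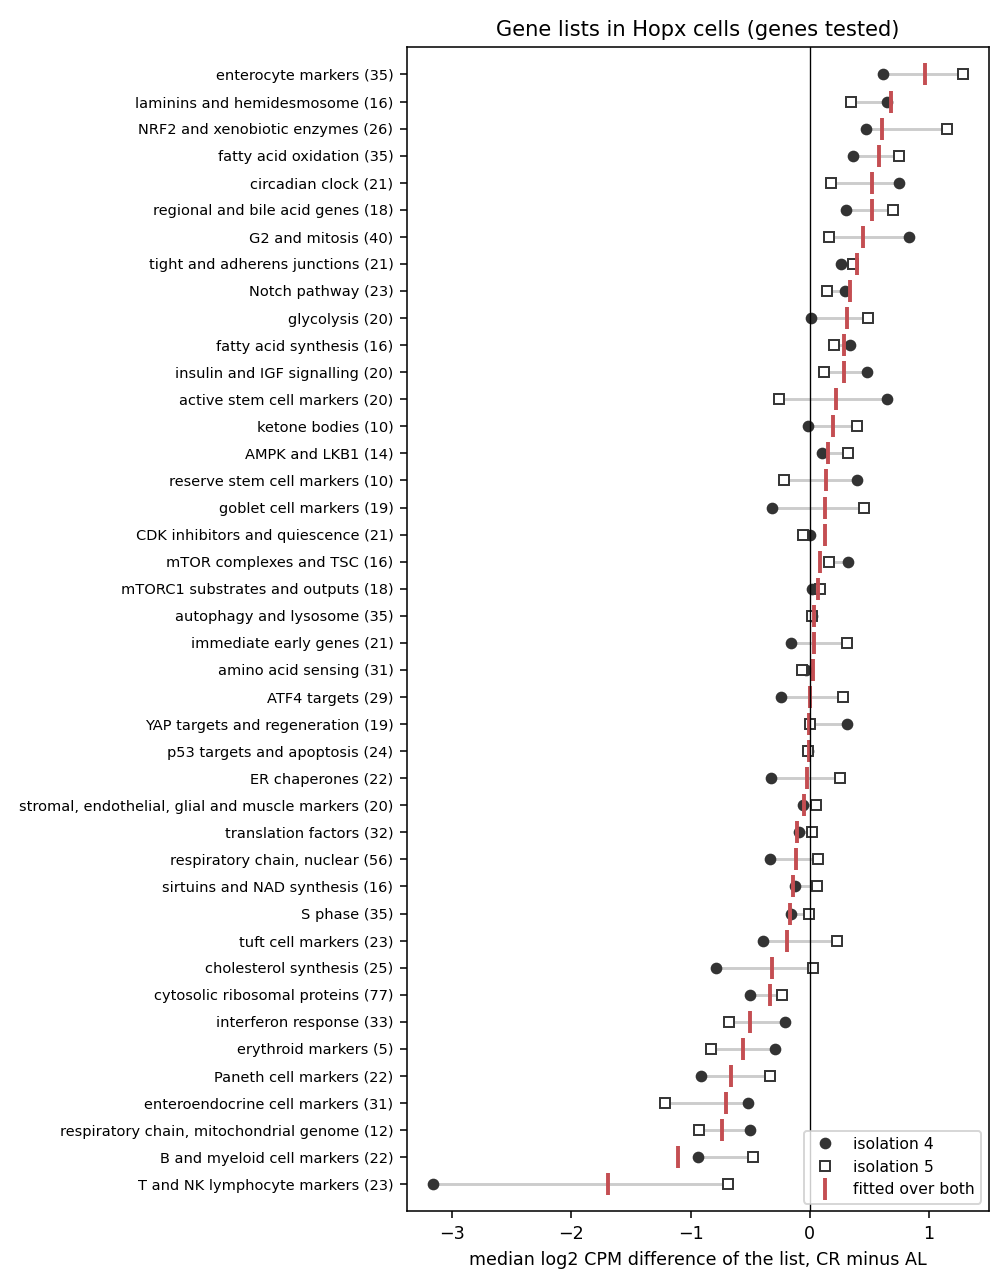
Median difference in log2 CPM (CR minus AL, horizontal axis) of 42 gene lists in isolation 4 (filled circles), isolation 5 (open squares) and fitted over both (red ticks), with the number of tested genes in brackets. Enterocyte, laminin, xenobiotic and fatty acid oxidation lists lie above 0 in both isolations, and lymphocyte, mitochondrial genome, enteroendocrine, Paneth and ribosomal lists below 0 in both.

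Beyond the lists, a rule took the genes with the smallest p among those at least 2-fold apart in the same direction in both isolations. Over all genes, 317 (2%) met this fold in the higher and 483 (3.05%) in the lower direction. The rule also required groups that do not overlap. Zc3h4, a zinc finger protein that ends transcription of non-coding RNA, stood at 4.74 and 2.84 CPM under AL and at 13.6 and 16.1 CPM under CR, a log2 difference of 1.97 (SE 0.30, edgeR adjusted p = 0.238). Retsat, which saturates retinol, stood at 185 and 109 CPM under AL and 418 and 352 CPM under CR. Cyp2j6, an arachidonic acid epoxygenase, stood at 111 and 87.8 CPM under AL and 250 and 189 CPM under CR. That both CR libraries lie above both AL libraries in these genes was set by the rule. Myh14, a non-muscle myosin of the apical junction belt, stood at 192 and 172 CPM under AL and 422 and 486 CPM under CR. Dip2a stood at 13.0 and 11.9 CPM under AL and 26.3 and 33.1 CPM under CR. Efnb2, an ephrin ligand, stood at 31.5 and 24.5 CPM under AL and 72.9 and 55.9 CPM under CR.

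Among the lower genes, Rbm45, an RNA-binding protein, fell in the paired fit from 20.7 and 24.1 CPM to 2.84 and 3.14 CPM, a log2 difference of -2.90 (SE 0.45, edgeR adjusted p = 0.238 over all libraries). Zfp280d, a zinc finger protein, fell in that fit from 57.5 and 197 CPM to 8.64 and 7.56 CPM. Hebp1, a heme-binding protein, stood at 8.001 and 7.43 CPM under AL and at 1.10 and 0.855 CPM under CR. In these genes the CR libraries lie close together and far below AL. Gatm, the first enzyme of creatine synthesis, stood at 18.0 and 4.12 CPM under AL and 0.774 and 0.878 CPM under CR. Tead2, a partner of YAP, stood at 8.47 and 10.9 CPM under AL and 2.47 and 4.16 CPM under CR. Tgtp1, an interferon-induced GTPase, stood at 8.11 and 6.41 CPM under AL and 0.931 and 0.578 CPM under CR. Mdn1, an ATPase of ribosome assembly, stood at 16.5 and 27.3 CPM under AL and 5.801 and 8.88 CPM under CR. The remaining genes of this rule, Tmem87a, Dnase2a, Ang5 and Sh2d3c, had log2 differences from -3.66 to -1.08.

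The diet difference of Hopx cells was tested against that of Lgr5 cells, with which it shares no library. Only Gm10698 passed (0.00631% of genes), with a difference of differences of -11.54 on the log2 scale (edgeR adjusted p = 0.00186), and 747 genes (4.72%) had an unadjusted p under 0.05, close to what the threshold itself allows. The diet test within Lgr5 cells called 3 genes (0.0189%), with 1549 (9.78%) at an unadjusted p under 0.05. Rptor was among the smallest, with 1.07 in Hopx and -0.13 in Lgr5 cells, a difference of 1.20 that did not pass (edgeR adjusted p = 1.00). For Mtor the values were 0.92 and 0.48, and for Tsc2 0.83 and 0.15. Iba57, of iron-sulfur cluster assembly, stood at 0.59 and -0.53, and Tmprss15, the enteropeptidase that activates trypsin, at 0.46 and 3.02. Mitochondrial genome genes were lower in Hopx cells (median log2 difference -0.73) and higher in Lgr5 cells (1.14). For the difference, 9 of 12 had an unadjusted p under 0.05. The Lgr5 median was uneven, at 2.10, 0.71 and 0.17 in isolations 1, 2 and 3. Tuft cell markers had medians of -0.19 in Hopx and -1.75 in Lgr5 cells, with 11 of 23 at an unadjusted p under 0.05. Enterocyte markers (0.97 and 0.63), fatty acid oxidation (0.58 and 0.41) and xenobiotic genes (0.61 and 1.08) were higher in both populations, with 2 of 35, 2 of 35 and 1 of 26 at that level.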

How the data were processed

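RNA was measured in 10 libraries, 1 per animal. The labels' protocols name TRIzol LS and spin columns for extraction. Per the labels, RNA was amplified as full-length cDNA with SMART-Seq v4 and tagged with Nextera XT. These kits add no molecular identifiers and mark no strand, so amplified copies count as reads and antisense genes cannot be told apart. The authors deposited estimated counts and TPM per mouse gene symbol. Per the submitters' processing notes, kallisto and edgeR were used with build GRCh38, a human build, and the sources used here give no versions or annotation.

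The estimated counts were rounded. Genes passing filterByExpr (minimum count 10) were scaled by TMM and tested with edgeR 4.0.16 (R 4.3.3), in a quasi-likelihood fit of 4 group means over 10 libraries (6 residual degrees of freedom), with Benjamini-Hochberg adjustment at 0.05. The fit with the isolation as a block has 3, the Hopx libraries alone 2, and these with the block 1. A standard error is the log2 difference divided by the square root of F. List medians by isolation use log2 CPM with a prior count of 2. The biological coefficient of variation was 0.389. DESeq2 1.42.0 and limma 3.58.1 (on log2(TPM + 1) and log2(TPM + 0.1)) were alternatives. Intervals and at-least folds cover counting error only, from counts pooled over the animals of a group, and not the spread between animals. Transcript length and GC content came from each gene's longest GENCODE M21 transcript, a definition chosen after results with the median over transcripts had been seen. The scripts were tested on simulated data. With 2 animals a group, an exact permutation test of a single gene could not pass, so none was made.

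The label's isolation number pairs AL with CR animals. Deviations from group means correlated at 0.03 within the Hopx pairs and at 0.02 to 0.17 within the Lgr5 pairs. Members, lists and rules were chosen with earlier results of these data known. Named genes are those past the threshold, the 12 higher and 12 lower with the smallest p among genes of at least 5 CPM that are 2-fold apart in both isolations without overlap, up to 4 members of a described list, fixed genes, and the 6 with the smallest p for the difference from Lgr5 cells. Further named genes, among them those of the paired fit, were chosen after their values were seen. Some genes that the rule covers are not reported here.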

Additional observations from a re-analysis of the deposited data

Results flagged for a closer look

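Gm10698 differed between the populations in its diet effect, by -11.54 on the log2 scale (Hopx minus Lgr5, edgeR adjusted p = 0.00186). It held 405 and 266 counts in the Hopx AL libraries and none in the Hopx CR libraries, and it did not pass with the isolation as a block.

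Genes of the mitochondrial genome went in opposite directions in the populations, with list medians below 0 in both Hopx isolations and above 0 in all 3 Lgr5 isolations. The Lgr5 medians were 2.10, 0.71 and 0.17 in isolations 1, 2 and 3. Mitochondrial genes took 1.92% (AL) and 4.89% (CR) of counts in isolation 1, 1.72% and 2.63% in isolation 2, and 1.94% and 1.86% in isolation 3. The median of the difference of diet effects was -1.70 on the log2 scale. The difference was not tested for the list.

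The list of sex-linked genes did the same, with a median difference of -1.82 that was not tested either. In Hopx cells this follows CR replicate 1, in which the 4 Y-linked genes summed to 2.76 CPM, against 82.6 to 133 CPM in the other Hopx libraries.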

How the results depend on the processing

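The number of genes past the threshold between the diets, 2 as reported, was 0 with the isolation as a replicate block over all 10 libraries (1575 at an unadjusted p under 0.05), 25 with that block in the Hopx libraries alone, 144 by DESeq2, 7 without a filter on low counts, 1 with libraries thinned to equal depth, 4 by limma on log2(TPM + 1) and 4 on log2(TPM + 0.1), 1 with the length and GC correction and 0 with that and the block (1400 at an unadjusted p under 0.05). Leaving out 1 library at a time gave 1 to 3. The difference from Lgr5 cells, 1 gene as reported, gave 0 with the block (764 at an unadjusted p under 0.05), 39 by DESeq2, 3 without a filter, 3 on log2(TPM + 1), 2 on log2(TPM + 0.1), 0 with the length and GC correction and the block (718), and 1 to 2 when 1 library was left out. The cause of these changes was not tested. The Hopx pairs gave 1 correlation of deviations, of 0.03, so the data give no sign of pairing beyond the shared isolation. Taking transcript length from the longest transcript was chosen after seeing the data. The definition used first, the median over a gene's transcripts, gave medians from -0.13 to 0.14 over 5 bins of length in place of -0.25 to 0.16, and 2 genes past the threshold. That choice and the corrected fit of the Hopx libraries alone, with 3 genes, were added after seeing the data.

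On log2(TPM + 1) the median of all genes was 0.15 in place of -0.02, so a change of sign there includes that shift. Log2 differences that changed sign belong to genes whose groups overlap. On log2(TPM + 1) and log2(TPM + 0.1), they were 0.14 and 0.14 for Hopx, 0.052 and 0.067 for Ptprc, 0.13 and 0.19 for Rictor, 0.12 and 0.12 for Rheb, 0.089 and 0.19 for Hmox1, 0.22 and 0.22 for Gclm, and 0.19 and 0.19 for Olfm4. With the length and GC correction alone, with the replicate block, and with the block in the Hopx libraries alone, they were 0.13, 0.096 and 0.094 for Hopx, 0.025, 0.027 and 0.034 for Olfm4, and -0.16, -0.22 and -0.20 for Tsc1. With length as the median over transcripts, Tsc1 stood at -0.12 and Gclm at 0.046. With the replicate block Bmi1 stood at -0.032 over all libraries and -0.036 in the Hopx libraries alone, and with upper quartile scaling at -0.068, where Rbp2 stood at -0.016. Leaving out 1 library at a time gave ranges of Hopx -0.40 to 0.11, Lgr5 -0.18 to 1.02, Bmi1 -0.43 to 0.36, Ptprc -0.65 to 0.21, Rictor -0.31 to 0.17, Tsc1 -0.50 to 0.54, Rps6kb1 -0.0026 to 0.32, Hmox1 -0.62 to 0.49, Nqo1 -0.22 to 0.85, Krt20 -0.17 to 0.44, Rbp2 -0.030 to 0.19, mt-Nd6 -0.21 to 0.98, Olfm4 -0.29 to 0.12, Cenpf -0.35 to 4.09 and Tmprss15 -0.11 to 0.88. The share of error that comes from depth was not tested.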

Other observations

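Most of the remaining lists lay near the level of all genes (median -0.02). Regional and bile acid genes, erythroid markers, and B and myeloid cell markers did not. Regional and bile acid genes were higher for 13 of 18, 12 without overlap (66.7% against 21.5% of all genes). Their median log2 difference was 0.52 (0.30 and 0.70 by isolation), and 0.48 after the length and GC correction. The 5 tested erythroid markers had a median of -0.56, which turned to 1.58 without AL replicate 1. Stress and recycling genes had median log2 differences near 0 for 29 targets of ATF4 (15 higher, 14 lower), -0.02 for 22 chaperones of the endoplasmic reticulum (10 and 12), 0.04 for 35 genes of autophagy and the lysosome (19 and 16) and near 0 for 24 genes of p53 and apoptosis (12 and 12). Targets of YAP, the factor of crypt regeneration, had 9 of 19 higher, and immediate early genes 12 of 21. Goblet cell markers had 10 of 19 higher, with medians of -0.32 and 0.45 by isolation. B and myeloid cell markers were lower for 17 of 22, 6 without overlap (27.3% against 21.1% of all genes). Of the 21 with a transcript length, 15 are in the shortest bin, in which 33.3% of genes were lower without overlap. The median of these markers was -1.10 (-0.93 and -0.47 by isolation, -0.28 without AL replicate 2), while their summed level was 3217 and 4263 CPM under AL and 3879 and 3701 CPM under CR.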
